A study of Homo sapiens with 34 samples.

Results

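The 10 genes described here are direct targets of WNT/β-catenin signalling or members of its feedback loop: AXIN2, LEF1, SP5, NKD1, DKK1, DKK4, SFRP1, SFRP5, NOTUM and RSPO3. They were chosen by name for these roles, with earlier results of these data known, and they are 10 of the 23189 genes in the count table. Each is represented by the RefSeq transcript row with the largest total count. H1 cells, a long-established line of human embryonic stem cells, were used for RNA-seq and taken through cardiac differentiation and sampled at days 0, 2, 6 and 10. NKX2-5, ZEB2 or ZNF503 was targeted by a lentivirally delivered shRNA, and each shRNA is represented by 1 line, the best of those tested. WT cells had either an empty vector or a GFP shRNA. All lines were selected with puromycin and went through the same steps, CHIR99021 (a GSK3β inhibitor that turns WNT signalling on) on the first day, IWP2 (which blocks the release of WNT ligands) from day 2 to day 5, and insulin at day 7 for the cells kept to day 10. Each of the 15 groups is used with 2 libraries, and day 10 of ZNF503 shRNA cells is not analysed here.

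WNT ligands bind Frizzled and LRP receptors at the cell surface, and the signal stops the AXIN and GSK3β complex from degrading β-catenin, which then works with TCF and LEF factors on target genes. Several targets in turn act on the pathway. AXIN2 and NKD1 dampen it inside the cell, while the secreted proteins DKK1, DKK4, SFRP1, SFRP5 and NOTUM dampen it outside, and RSPO3 strengthens it by sparing the receptors from turnover. In cardiac differentiation WNT signalling is required first, to make mesendoderm and mesoderm, and has to be shut down afterwards for heart muscle to form.

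RefSeq promoter windows (table build GRCh38.p14, 250 bases before to 50 after the start) were at hand for 5 of the 10 genes, LEF1, SP5, DKK1, SFRP5 and RSPO3. AXIN2, NKD1, DKK4, SFRP1 and NOTUM had no entry. The TCF/LEF motif CTTTGAT was searched on both strands, and the variant CTTTGAA was added after the first search had been seen. The matches shown do not overlap each other. CTTTGAT is held by 2.62% of all 35116 windows of 300 bases and CTTTGAA by 4.43%, with 0.145% holding CTTTGAA at least 2 times. The upstream sequences of SP5 and DKK1 are shown because their RNA rose 236-fold and 210-fold in WT cells from day 0 to day 2, the step with CHIR99021, and theirs were the windows of the 5 with a match. Capitals mark CTTTGAT or CTTTGAA on the strand shown or, as TTCAAAG, on the other. Each sequence was placed in GRCh37 by its exact and single match.
SP5, chr2:171571597-171571846, plus strand: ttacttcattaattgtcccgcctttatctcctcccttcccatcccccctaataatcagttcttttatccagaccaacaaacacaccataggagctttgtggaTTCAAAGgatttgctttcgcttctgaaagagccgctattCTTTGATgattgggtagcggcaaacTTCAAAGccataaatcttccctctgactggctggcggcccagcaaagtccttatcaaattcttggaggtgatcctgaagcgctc
DKK1, chr10:54073791-54074040, plus strand: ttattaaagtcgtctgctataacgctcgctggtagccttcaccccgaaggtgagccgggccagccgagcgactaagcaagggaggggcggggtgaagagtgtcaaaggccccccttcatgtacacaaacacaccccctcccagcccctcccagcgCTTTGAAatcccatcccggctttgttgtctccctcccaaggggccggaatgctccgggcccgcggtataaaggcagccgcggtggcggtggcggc
In SP5 the matches begin 148, 109 and 84 bases before the start, the middle one being CTTTGAT. In DKK1 the single match begins 95 bases before the start. The windows of LEF1, SFRP5 and RSPO3 hold neither string of letters within these bases. That of LEF1 (chr4:109087408-109087707, minus strand) lies inside the annotated gene, whose outermost start is at 109090112. The bases before that start were not searched.

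In GRCh37 coordinates of GENCODE, the 2 transcription factor genes are LEF1 at chr4:108968701-109090112 (minus strand) and SP5 at chr2:171571847-171574588 (plus strand). The genes of the intracellular inhibitors are AXIN2 at chr17:63524681-63557766 (minus strand) and NKD1 at chr16:50582307-50683160 (plus strand). The Dickkopf genes are DKK1 at chr10:54074041-54077802 (plus strand) and DKK4 at chr8:42231581-42234747 (minus strand). The secreted Frizzled-related genes are SFRP1 at chr8:41119481-41166992 (minus strand) and SFRP5 at chr10:99526508-99531756 (minus strand). NOTUM lies at chr17:79910383-79919716 (minus strand) and RSPO3 at chr6:127439816-127520626 (plus strand). Annotated genes overlap AXIN2, NKD1 and SFRP1 on their own strand and LEF1 (LEF1-AS1), DKK1 (PRKG1-AS1), SP5 (ERICH2-DT), NKD1, NOTUM, RSPO3 and SFRP1 on the opposite strand. The counting is not stated to use strand, so reads of these genes and of their overlapping partners cannot be told apart.

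The 30 libraries used held between 9189943 and 90814577 counts in the rows used, with a median of 32191176. In the shallowest library 3 counts correspond to 0.323 CPM, the count scaled to the size of its library, and levels under this are close to the limit of detection. In 4 further columns, WT and ZEB2 shRNA day 10 replicates 1 and 2, the values could not be tied to gene rows (Spearman correlation with replicate 3 between 0.113 and 0.122, against 0.985 and 0.993 for replicate 4), so day 10 rests on replicates 3 and 4 of those groups. The targeted genes stood at 1.30% ± 0.243 of WT for NKX2-5 at day 6, 58.5% ± 1.83 for ZEB2 at day 6 and 6.98% ± 0.297 for ZNF503 at day 6 (SD, n = 2 shRNA libraries each). At day 2 ZNF503 stood at 90.1% ± 35.0 of WT, with at most 34 counts in a WT library. NKX2-5 had at most 6 counts in a WT library at that day. At day 0 NKX2-5, ZEB2 and ZNF503 had at most 16, 9 and 4 counts in a WT library. Loss of the targeted gene cannot be judged well at such counts. At day 6 WT means were 67.3 CPM for NKX2-5, 95.4 for ZEB2 and 9.02 for ZNF503. ZNF503 shRNA cells held 2.48 of NKX2-5 and 11.8 of ZEB2. NKX2-5 shRNA cells held 20.5 of ZEB2 and 0.745 of ZNF503. ZEB2 shRNA cells held 36.0 of NKX2-5, 55.8 of ZEB2 and 12.5 of ZNF503. The part of each targeted gene in the differences below was not tested. The labels call the libraries replicates without saying how the cultures were separated, so p-values measure the spread between libraries as deposited.

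**Figure D1:**
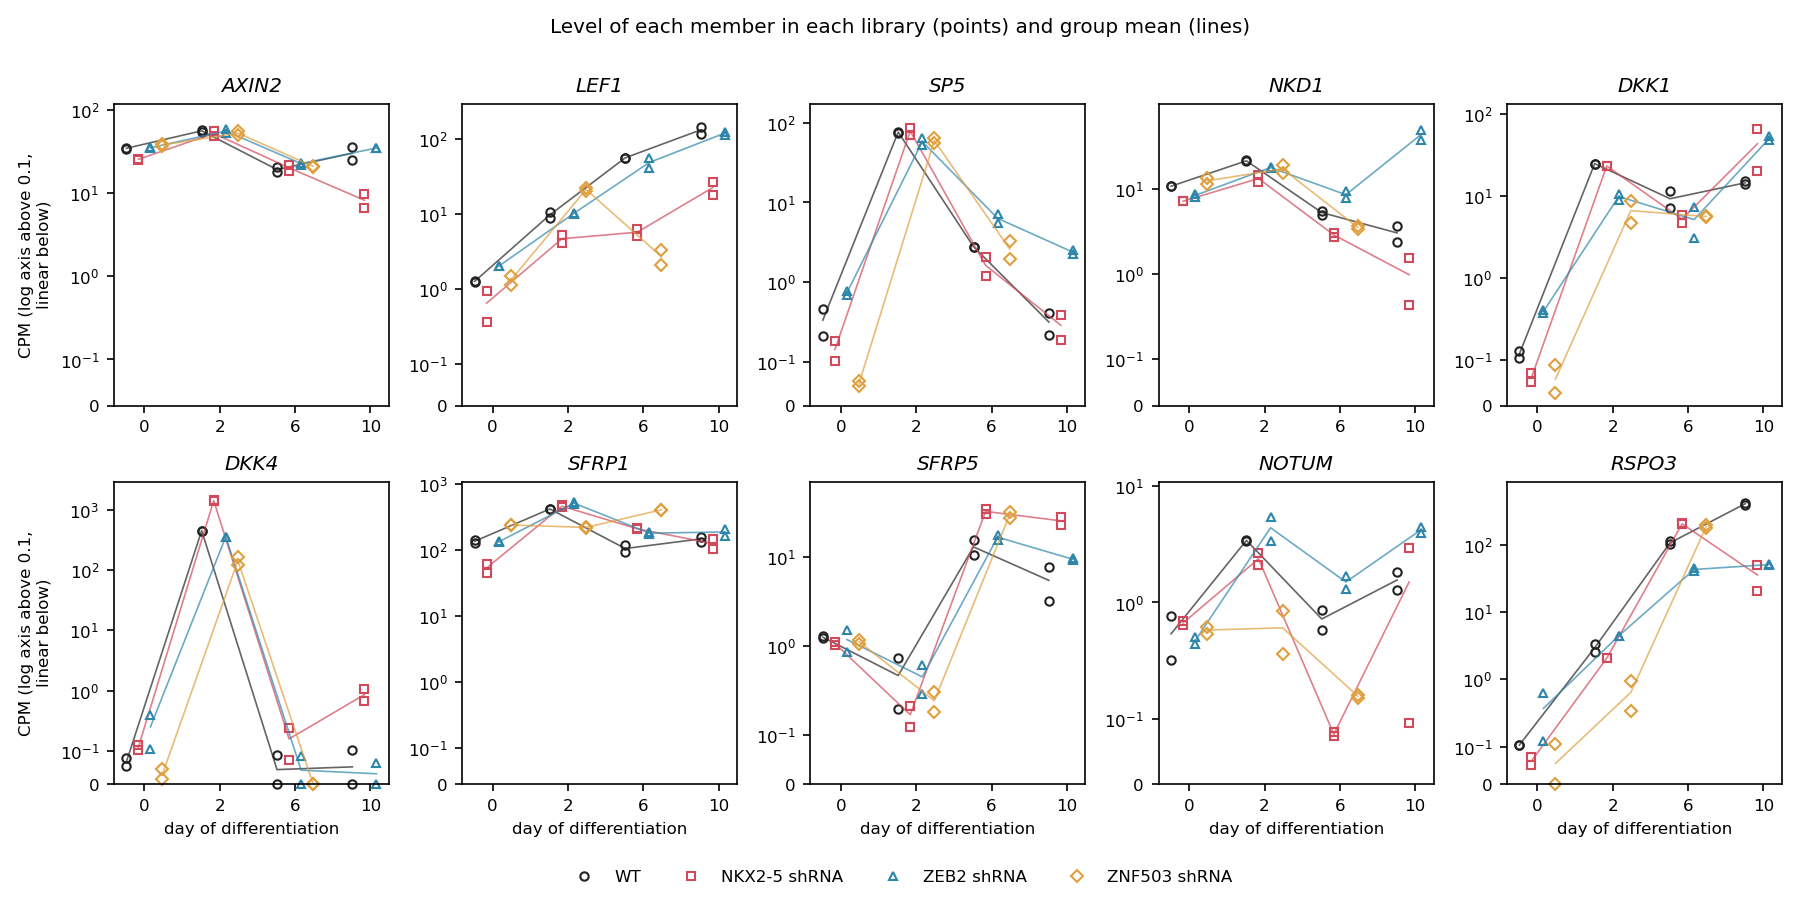
Level of the 10 genes in CPM (y axis, logarithmic above 0.1 and linear below) at days 0, 2, 6 and 10 (x axis) in WT, NKX2-5 shRNA, ZEB2 shRNA and ZNF503 shRNA cells. Points are single libraries, 2 per group, and lines join group means. DKK4 and SP5 peaked at day 2 in every line, and RSPO3 climbed to day 6 in every line. LEF1 climbed from day 6 to day 10 in WT, NKX2-5 shRNA and ZEB2 shRNA cells.

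The exposure to CHIR99021 was followed by a rise of most of these genes. In WT cells 9 of the 10 genes rose from day 0 to day 2 and none fell, where 44.1% of all genes tested changed at an adjusted p under 0.05 (edgeR's quasi-likelihood test). The median change of the 10 genes was 2.83 on the log2 scale, beside -0.01 for all genes tested. SFRP5 was the exception, with a log2 change of -1.60 (SE 0.62, adjusted p = 0.059). In NKX2-5 shRNA cells 7 rose and 1 fell (28.3% of all genes), in ZEB2 shRNA cells 9 rose and 1 fell (56.9%), and in ZNF503 shRNA cells 7 rose and 1 fell (31.6%). The gene that fell in each of the shRNA lines was SFRP5. The medians of the 10 genes in these lines were 3.03, 2.74 and 1.66, beside 0.013, -0.07 and 0.0033 for all genes tested. Some of these early calls were weak. In ZNF503 shRNA cells the rise of NKD1 was lost with DESeq2, with summed RefSeq rows and when all groups were fitted together. Over the other fits and with single libraries left out it ran from 0.33 to 0.68, and that of AXIN2 from 0.39 to 0.64. The fall of SFRP5 in ZEB2 shRNA cells ran from -2.03 to -0.89.

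After the IWP2 step the direction turned for most genes. From day 2 to day 6 in WT cells 7 genes fell and 3 rose, where 49.8% of all genes changed, and the 3 that rose were LEF1, SFRP5 and RSPO3. In ZEB2 shRNA cells 7 fell and 3 rose (48.7% of all genes), in NKX2-5 shRNA cells 7 fell and 2 rose (47.9%), and in ZNF503 shRNA cells 6 fell and 3 rose (65.9%). SFRP5 and RSPO3 rose in each line. LEF1 fell in ZNF503 shRNA cells, and its log2 change in NKX2-5 shRNA cells was 0.28 (SE 0.41, adjusted p = 0.60). At the fold and FDR thresholds of the study (at least 4-fold at 10% FDR at day 2, 8-fold at 1% FDR at days 6 and 10, and 2-fold at 10% FDR for day 0) 8.36%, 8.94%, 10.7% and 4.03% of all genes changed from day 0 to day 2 in WT, NKX2-5, ZEB2 and ZNF503 shRNA cells, and 8.35%, 9.04%, 8.14% and 9.82% from day 2 to day 6. Median changes ran from -1.79 in WT to -1.20 in ZEB2 shRNA cells.

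From day 6 to day 10 the genes parted. In WT cells 5 rose, 3 fell and 2 did not pass the test (57.5% of all genes changed), in NKX2-5 shRNA cells 4 rose and 5 fell (49.1%), and in ZEB2 shRNA cells 5 rose and 2 fell (63.3%). The count in ZEB2 shRNA cells was close to the share among all genes. AXIN2, LEF1, DKK1, SFRP1 and RSPO3 were those that rose in WT cells. AXIN2, SFRP1 and RSPO3 fell in NKX2-5 shRNA cells. At the thresholds of the study 3.94%, 5.53% and 4.10% of all genes changed in WT, NKX2-5 and ZEB2 shRNA cells. Several of these late calls rested on single libraries. In WT cells AXIN2 was lost without day 6 replicate 2 (adjusted p = 0.066) and SFRP1 without day 6 replicate 1 (adjusted p = 0.072), and 4 of the 8 calls were left without WT day 6 replicate 2. In NKX2-5 shRNA cells SFRP1 was lost without day 6 replicate 1 (adjusted p = 0.074) or replicate 2 (adjusted p = 0.066), and 5 of the 9 calls were left without day 6 replicate 1.

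**Figure D2:**
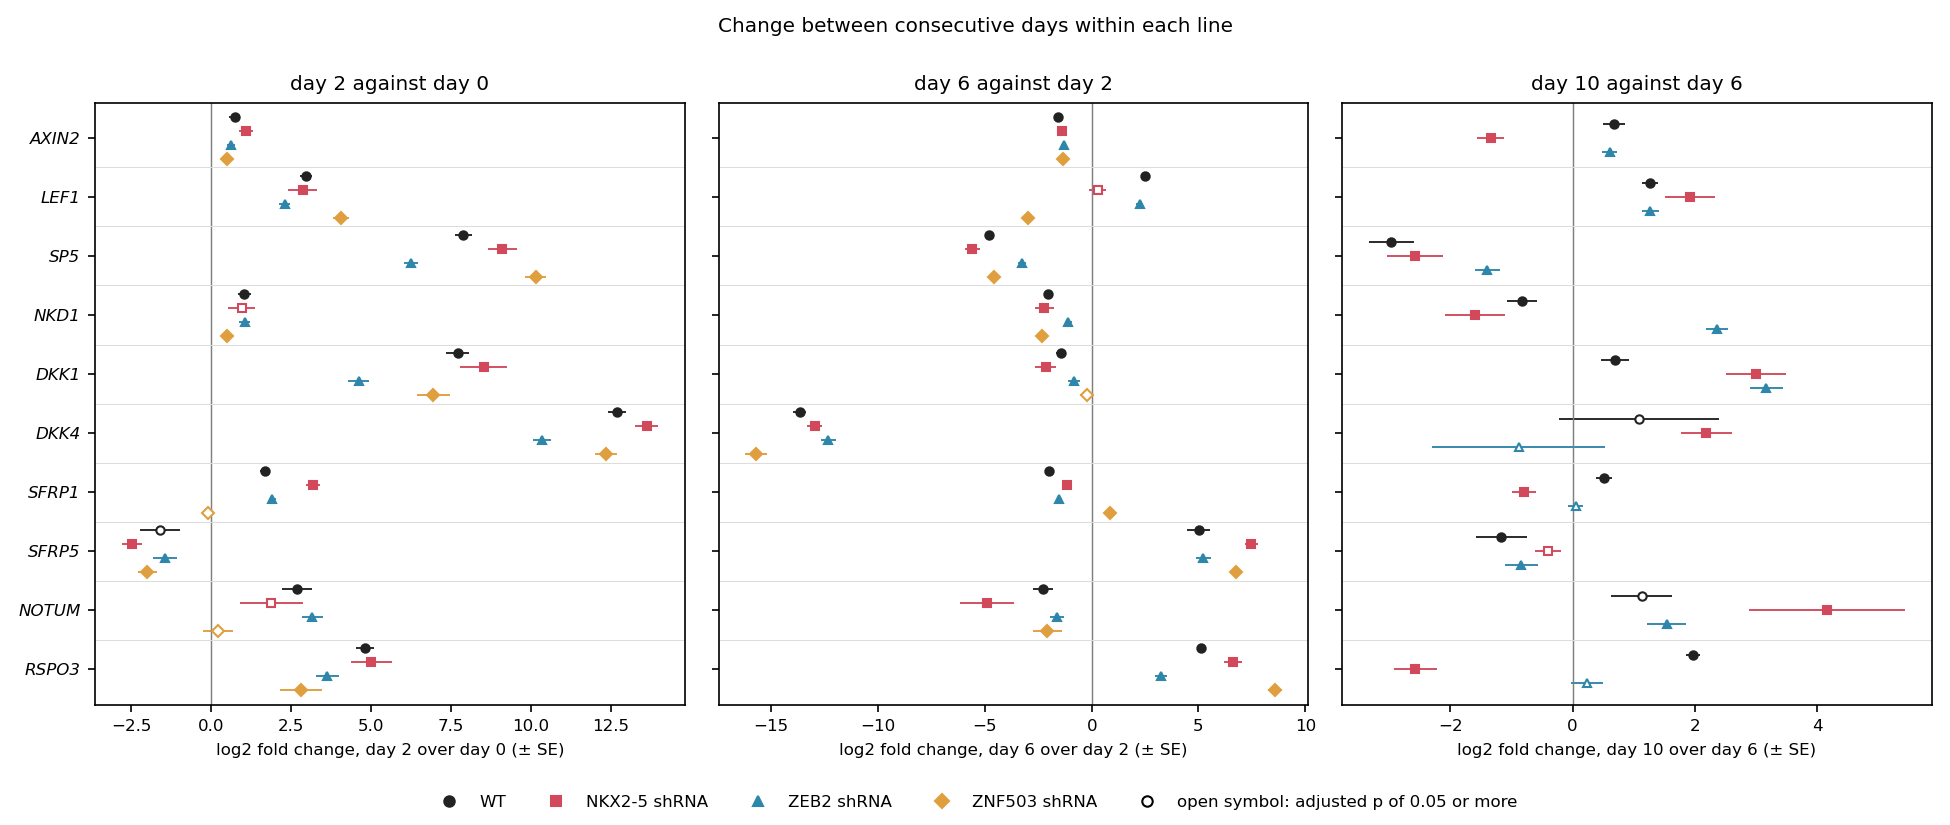
Log2 fold change of each gene (x axis, with SE) between consecutive days in each line, with genes on the y axis. Filled symbols passed the test. From day 0 to day 2 the symbols of all genes but SFRP5 sit right of 0, except SFRP1 in ZNF503 shRNA cells. From day 2 to day 6 they sit left of 0, apart from SFRP5, RSPO3, LEF1 outside ZNF503 shRNA cells and, in ZNF503 shRNA cells, SFRP1. DKK4 values at days 0, 6 and 10 rest on few counts, so its fitted sizes depend on the prior count.

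Against WT at the same day, the ZEB2 line had the fewest calls at days 0, 2 and 6 and the ZNF503 line the most at day 2. All comparisons with WT at a day share its 2 WT libraries. At day 0, the test called 3 of 8 genes in NKX2-5 shRNA cells, all lower (15.9% of all genes differed), 1 was higher and 1 lower in ZNF503 shRNA cells (7.53%), and 0 differed in ZEB2 shRNA cells (3.93%), where 3 had an unadjusted p under 0.05 and DESeq2 also called 0. At day 2, 1 of 10 was higher and 2 lower in NKX2-5 shRNA cells (26.7%), 1 was lower in ZEB2 shRNA cells (0.490%), and 1 was higher and 6 lower in ZNF503 shRNA cells (26.9%). At day 6, 3 of 9 were higher and 3 lower in NKX2-5 shRNA cells (49.1%), 2 higher and 1 lower in ZEB2 shRNA cells (11.0%), and 3 higher and 3 lower in ZNF503 shRNA cells (55.7%). At day 10, 3 of 10 were higher and 4 lower in NKX2-5 shRNA cells (43.9%), and 3 higher and 1 lower in ZEB2 shRNA cells (18.2%). At the thresholds of the study the shares of all genes in NKX2-5, ZEB2 and ZNF503 shRNA cells were 4.03%, 2.20% and 2.56% at day 0, were 1.19%, 0.133% and 2.80% at day 2, and were 4.71%, 0.462% and 3.91% at day 6, and at day 10 they were 7.31% with NKX2-5 and 1.46% with ZEB2 shRNA. The calls against WT that met them were SFRP1 at day 0, LEF1 and NOTUM at day 6 and RSPO3 at day 10 for NKX2-5 shRNA, NKD1 and RSPO3 at day 10 for ZEB2 shRNA, and SP5 at day 0, DKK1, NOTUM and RSPO3 at day 2 and LEF1 at day 6 for ZNF503 shRNA. All other calls against WT missed these thresholds. Below, an alternative fit is another model, scaling, filter or choice of rows or the fit without a library, each at an adjusted p under 0.05. For NKX2-5 shRNA at day 2 the count is close to the share among all genes. The median log2 difference of the genes tested ran from -0.84 in ZNF503 shRNA cells at day 2 to 0.54 in ZEB2 shRNA cells at day 10, where the medians of all genes were -0.0091 and 0.026. The calls of ZEB2 shRNA cells at day 10 numbered 1 without WT replicate 3 and 2 without any other library, and those of NKX2-5 shRNA cells numbered 4 without either WT library. DKK4 and RSPO3 at day 0 and DKK4 at day 6 did not pass the filter on low counts.

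**Figure D3:**
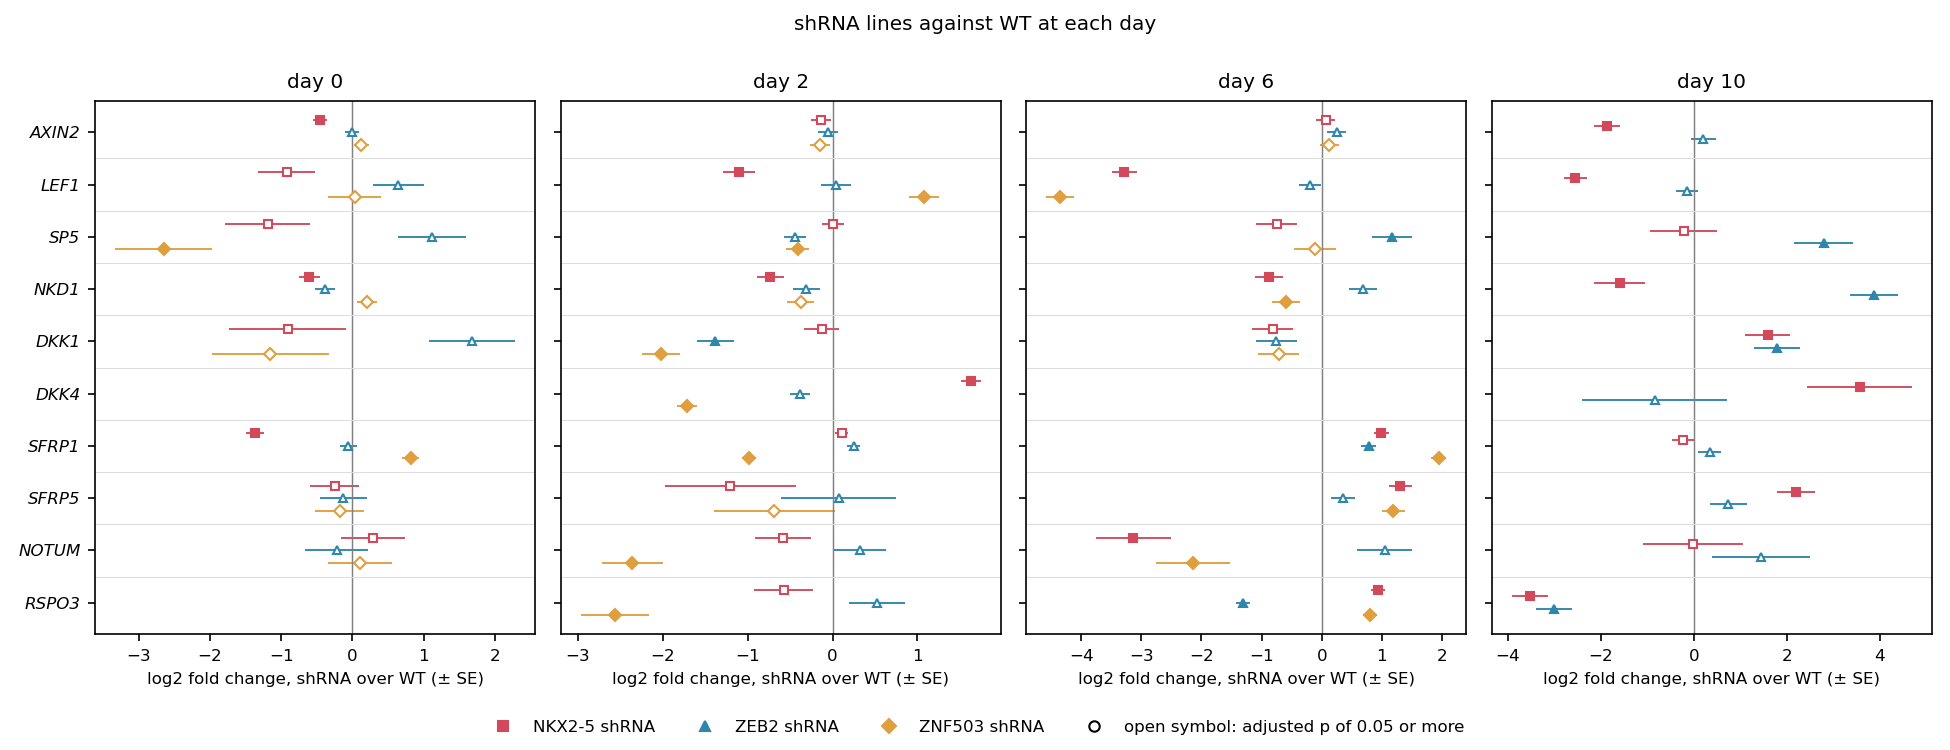
Log2 fold change of each gene in shRNA cells over WT (x axis, with SE) at days 0, 2, 6 and 10, with genes on the y axis. Filled symbols passed the test and untested genes have no symbol. At day 6 LEF1 and NOTUM lie far to the left in NKX2-5 and ZNF503 shRNA cells, and at day 10 RSPO3 lies left in both lines measured.

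Marker lists of cell types moved with these comparisons. The 6 cardiomyocyte markers summed to between 8090 and 10105 CPM in WT cells at day 6, 4302 to 4781 in ZEB2 shRNA cells, 158 to 210 in ZNF503 shRNA cells and 40.5 to 49.3 in NKX2-5 shRNA cells. The 7 endoderm and hepatocyte markers summed to between 327 and 668 CPM in WT cells, 308 to 436 in ZEB2 shRNA cells, 2397 to 2524 in ZNF503 shRNA cells and 3223 to 3322 in NKX2-5 shRNA cells. None of these genes was at 0 in any of these groups. At day 10 the endoderm and hepatocyte sum was 1490 to 3680 in WT, 6632 to 8033 in ZEB2 shRNA and 27583 to 39046 in NKX2-5 shRNA cells, and the sum of 6 blood cell markers was 13.4 to 64.3, 9.92 to 12.3 (1 gene at 0) and 1423 to 1631. The 4 mesendoderm markers summed to 778 to 819 CPM in WT cells at day 2 and to 375 to 474 in ZNF503 shRNA cells, with 0 genes at 0. At the same day the 5 smooth muscle and fibroblast markers summed to 409.3 to 409.7 CPM in WT and 40.3 to 43.4 in ZNF503 shRNA cells (1 gene at 0), and the endoderm and hepatocyte markers to 109 to 117 and 26.6 to 35.1 (1 gene at 0 in each). The 4 neural markers summed to 248.4 to 250.5 and 123 to 125, the 6 cardiomyocyte markers to 71.8 to 76.1 and 162 to 190, and the 5 pluripotency markers to 2294 to 2310 and 2857 to 2943. Their part in the results below was not tested. In these bulk samples fewer cells of a type and less RNA per cell cannot be told apart.

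LEF1, a DNA-binding partner of β-catenin and itself a WNT target, was lower in 2 of the 3 shRNA lines at day 6. In WT cells it was measured at 1.23 and 1.28 CPM at day 0, 8.88 and 10.4 at day 2, 55.6 and 55.1 at day 6, and 116 and 144 at day 10. Each step was a rise, by 2.97 (SE 0.18, adjusted p = 1.5e-06), 2.51 (SE 0.15, adjusted p = 3.8e-07) and 1.26 (SE 0.14, adjusted p = 4.0e-05) on the log2 scale. ZEB2 shRNA libraries held 9.92 and 10.4 CPM at day 2, 55.3 and 40.9 at day 6 and 113 and 123 at day 10, and they overlapped with the WT libraries at each of these days.

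ZNF503 shRNA cells held more LEF1 than WT at day 2 and less at day 6. At day 2 they held 20.1 and 21.9 CPM, above both WT libraries, a log2 difference of 1.07 (SE 0.18, adjusted p = 0.00039). At day 6 they held 2.09 and 3.28 CPM, far under both WT libraries, a log2 difference of -4.35 (SE 0.23, adjusted p = 3.3e-08). The fall from day 2 to day 6 in this line was -2.97 (SE 0.25, adjusted p = 8.9e-08), opposite to the rise in WT. The difference between the lines in this step was -5.44 (SE 0.30, adjusted p = 6.7e-10), the largest of the 10 genes in either direction.

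NKX2-5 shRNA cells held less LEF1 than WT, a difference that passed the test from day 2 onwards. At day 0 they had 0.359 and 0.931 CPM, also under both WT libraries, a log2 difference of -0.92 (SE 0.40, adjusted p = 0.13). They had 4.04 and 5.24 CPM at day 2, 5.07 and 6.27 at day 6, and 17.8 and 26.7 at day 10. None of these libraries reached the WT level of its day, and the log2 differences were -1.10 (SE 0.19, adjusted p = 0.00079), -3.28 (SE 0.21, adjusted p = 1.0e-07) and -2.54 (SE 0.25, adjusted p = 0.00051). The rise that WT showed from day 2 to day 6 was smaller here by 2.19 (SE 0.28, adjusted p = 9.1e-06). These calls of LEF1 against WT remained under every alternative fit that was run, as did the difference between the lines from day 2 to day 6. From day 6 to day 10 LEF1 rose in NKX2-5 shRNA cells too, by 1.62 to 2.22 on the log2 scale over the alternative fits. That call was lost without NKX2-5 shRNA day 6 replicate 1.

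SP5, a zinc finger repressor that is induced directly by β-catenin, marked the CHIR99021 step. Its WT libraries held 0.454 and 0.209 CPM at day 0, 75.7 and 77.8 at day 2, 2.77 and 2.79 at day 6, and 0.412 and 0.215 at day 10. The rise was 7.88 (SE 0.27, adjusted p = 4.0e-08) and the fall from day 2 to day 6 was -4.80 (SE 0.21, adjusted p = 4.7e-08) on the log2 scale. Without WT day 0 replicate 1 the rise was 8.52. At day 2 the shRNA libraries held 71.4 and 86.4 CPM in NKX2-5, 52.7 and 63.8 in ZEB2 and 55.8 and 64.0 in ZNF503 shRNA cells. SP5 was lower than WT in ZNF503 shRNA cells at this day, by a log2 difference of -0.41 (SE 0.13, adjusted p = 0.031), a call that was lost without WT replicate 1 (adjusted p = 0.084), WT replicate 2 (adjusted p = 0.14) or ZNF503 shRNA replicate 1 (adjusted p = 0.26), and when all groups were fitted together (adjusted p = 0.30) or all RefSeq rows of each gene were summed (adjusted p = 0.062).

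SP5 stayed higher in ZEB2 shRNA cells after day 2. At day 6 they held 5.54 and 7.08 CPM, and at day 10 they held 2.22 and 2.52 CPM, in each case above both WT libraries. The log2 differences from WT were 1.17 (SE 0.33, adjusted p = 0.040) and 2.80 (SE 0.64, adjusted p = 0.025). Both calls were lost when any library of the groups compared was left out, with adjusted p between 0.096 and 0.22 at day 6 and between 0.11 and 0.20 at day 10, where the value was 3.42 without WT replicate 3. The day 6 call was also lost with summed rows (adjusted p = 0.073). The mesendoderm markers summed to between 171 and 187 CPM in ZEB2 shRNA cells at day 6, against 12.6 to 13.4 in WT, and their part in this difference was not tested. At day 0 SP5 rested on 2 and 4 counts in the ZNF503 shRNA libraries, against 17 and 8 in WT. The log2 difference of -2.65 (SE 0.68, adjusted p = 0.037) was lost when any of the 4 libraries was left out (adjusted p between 0.087 and 0.32, and a value of -2.0 without WT replicate 1) and with summed rows (adjusted p = 0.055).

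AXIN2, the scaffold that rebuilds the β-catenin destruction complex and a widely used readout of the pathway, varied within a narrow range. Its highest group mean was 6.82 times its lowest, the smallest spread of the 10 genes among the 9 with a mean above 0 in every group. WT libraries held 34.1 and 34.7 CPM at day 0, 54.5 and 57.1 at day 2, 20.5 and 17.7 at day 6 and 24.8 and 35.3 at day 10. It rose by 0.74 (SE 0.17, adjusted p = 0.0049) at the CHIR99021 step and fell by 1.57 (SE 0.17, adjusted p = 3.7e-05) at the next. At days 2 and 6 no line passed the test against WT, with adjusted p between 0.37 and 0.94 over the 6 comparisons. At day 10 NKX2-5 shRNA libraries held 6.68 and 9.69 CPM, under every library of any other group, and the difference from WT was -1.87 (SE 0.28, adjusted p = 0.0023). This call remained in each alternative fit. The smaller difference of these cells at day 0, with 25.8 and 24.9 CPM, was -0.46 (SE 0.10, adjusted p = 0.011) and was lost without WT replicate 1 (adjusted p = 0.087), without WT replicate 2 (adjusted p = 0.11) and when all groups were fitted together (adjusted p = 0.11).

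NKD1, which binds Dishevelled and dampens the signal, rose and fell with AXIN2 over the first steps in WT. Its libraries there held 10.7 and 10.7 CPM at day 0, 21.5 and 21.1 at day 2, 4.94 and 5.53 at day 6 and 2.37 and 3.66 at day 10. The rise was 1.04 (SE 0.20, adjusted p = 0.0020) and the fall -2.04 (SE 0.21, adjusted p = 2.1e-05) on the log2 scale. In ZEB2 shRNA cells NKD1 turned upward again, with 7.71 and 9.29 CPM at day 6 and 37.5 and 49.7 at day 10, higher than in any other group. That step was 2.36 (SE 0.18, adjusted p = 1.4e-07), where WT fell by 0.83 (SE 0.24, adjusted p = 0.014). The fall in WT was lost without WT day 10 replicate 3 (-0.49, adjusted p = 0.13) or WT day 6 replicate 2 (adjusted p = 0.055). The difference between ZEB2 shRNA and WT cells at day 10 was 3.87 (SE 0.51, adjusted p = 0.0044), a fold of 14.7, and without WT replicate 3 it was 3.57 (adjusted p = 0.058). The difference in the change between the lines was not tested for this step.

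NKX2-5 shRNA cells held less NKD1 than WT at each day. Their libraries had 7.11 and 7.15 CPM at day 0, 11.9 and 14.5 at day 2, 2.68 and 3.02 at day 6, and 0.429 and 1.51 at day 10, without overlap with WT. The log2 differences were -0.60 (adjusted p = 0.018), -0.73 (adjusted p = 0.0040), -0.88 (adjusted p = 0.0078) and -1.60 (adjusted p = 0.047). Each was lost in some alternative fit. The day 0 call was lost without either WT library (adjusted p = 0.11) and in the fit of all groups (adjusted p = 0.19), the day 2 call without NKX2-5 shRNA replicate 1 (adjusted p = 0.053) and in the fit of all groups (adjusted p = 0.068), and the day 6 call without NKX2-5 shRNA replicate 1 (adjusted p = 0.058). The day 10 value was -0.93 without NKX2-5 shRNA replicate 1 (adjusted p = 0.090) and -2.73 without replicate 2, and the call was also lost without WT replicate 3 (adjusted p = 0.094), without WT replicate 4 (adjusted p = 0.20) and with summed rows (adjusted p = 0.056). In ZNF503 shRNA cells at day 6 NKD1 passed with a log2 difference of -0.60 and an adjusted p of 0.049, and it passed under none of 10 alternative fits, with adjusted p between 0.055 and 0.17.

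DKK1, a secreted blocker of the LRP coreceptors, was near the limit of detection in WT cells at day 0, with 0.107 and 0.131 CPM (4 and 5 counts). It stood at 25.1 CPM in both libraries at day 2, at 11.5 and 7.19 at day 6 and at 15.3 and 14 at day 10. The rise was 7.71 (SE 0.36, adjusted p = 2.5e-07) and the fall from day 2 to day 6 was -1.45 (SE 0.23, adjusted p = 0.00042) on the log2 scale. At day 2 NKX2-5 shRNA cells held 23.5 and 23.4 CPM, ZEB2 shRNA cells 10.8 and 9.15, and ZNF503 shRNA cells 4.72 and 8.68. DKK1 was thus lower in ZNF503 shRNA cells, by -2.02 (SE 0.23, adjusted p = 1.4e-05), which remained in each alternative fit. In ZEB2 shRNA cells the difference was -1.38 (SE 0.22, adjusted p = 0.011), the call of this line among the 10 genes at day 2. It was lost without WT replicate 1 (adjusted p = 0.064), WT replicate 2 (adjusted p = 0.065) or ZEB2 shRNA replicate 2 (adjusted p = 0.056) and in the fit of all groups (adjusted p = 0.41).

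At day 10 DKK1 was higher in both shRNA lines measured. NKX2-5 shRNA libraries held 67.0 and 20.7 CPM and ZEB2 shRNA libraries 53.9 and 48.4, all above the WT libraries. The log2 differences were 1.59 (SE 0.49, adjusted p = 0.034) and 1.79 (SE 0.49, adjusted p = 0.045). The first was 0.50 (adjusted p = 0.092) without NKX2-5 shRNA replicate 1, was 2.2 without replicate 2, and was lost without WT replicate 3 (adjusted p = 0.15) or WT replicate 4 (adjusted p = 0.16). The second was lost without any of its 4 libraries (adjusted p between 0.15 and 0.20) and with summed rows (adjusted p = 0.057). Within the lines DKK1 rose from day 6 to day 10 by 2.99 (SE 0.49, adjusted p = 0.0020) in NKX2-5 shRNA cells and by 3.16 (SE 0.27, adjusted p = 3.8e-07) in ZEB2 shRNA cells, and these calls remained in each alternative fit. The value in NKX2-5 shRNA cells was 1.95 without day 10 replicate 1 and 3.63 without replicate 2, and that in ZEB2 shRNA cells was 4.0 without day 6 replicate 1. WT rose by 0.69 (SE 0.23, adjusted p = 0.026), which was lost without WT day 10 replicate 3 (adjusted p = 0.078) or WT day 6 replicate 2 (0.35, adjusted p = 0.18), with no filter on low counts (adjusted p = 0.053) and in the fit of all groups (adjusted p = 0.16).

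DKK4, a close relative of DKK1, was a near on-and-off marker of day 2. WT libraries held 2 and 3 counts at day 0, 14165 and 7477 counts at day 2 (456 and 459 CPM) and 2 and 0 counts at day 6. The ratio of day 2 to day 0 was 6912 (95% interval from counting error alone 2961 to 21290), and that of day 2 to day 6 was 14756 (4084 to 121852). In ZNF503 shRNA cells at day 6 both libraries were at 0, at least 1935-fold lower than at day 2 when 3 counts over the group are taken as the floor. The 3 lines with an shRNA spread widely around WT at day 2, with 1434 and 1453 CPM in NKX2-5 shRNA, 361 and 363 in ZEB2 shRNA and 122 and 167 in ZNF503 shRNA cells, and no group overlapped with WT. NKX2-5 shRNA cells exceeded WT by 1.63 (SE 0.12, adjusted p = 1.2e-06), a fold of 3.09, and ZNF503 shRNA cells fell short of it by 1.71 (log2 difference -1.71, SE 0.12, adjusted p = 1.2e-07), a fold of 3.28. Both calls remained in each alternative fit. The difference of ZEB2 shRNA cells was -0.38 (SE 0.12, adjusted p = 0.27). At day 10 the NKX2-5 shRNA libraries held 22 and 14 counts against 2 and 0 in WT, a ratio of 12.3 (3.16 to 105). Its adjusted p was 0.037, and the call was lost with DESeq2 (adjusted p = 0.088), with no filter on low counts (adjusted p = 0.057) and without NKX2-5 shRNA replicate 1 (adjusted p = 0.087), WT replicate 3 (adjusted p = 0.10) or WT replicate 4 (adjusted p = 0.16).

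SFRP1, which binds and sequesters WNT ligands, was abundant in each group and moved in opposite ways in the lines. WT libraries held 142 and 130 CPM at day 0, 413 and 427 at day 2, 92.7 and 118 at day 6 and 134 and 160 at day 10. It rose by 1.68 (SE 0.13, adjusted p = 8.5e-06) and then fell by 2.01 (SE 0.14, adjusted p = 1.0e-06) on the log2 scale. ZNF503 shRNA cells held 238 and 243 CPM at day 0, 218 and 223 at day 2 and 408 and 409 at day 6. Of the days shared by both, day 2 was thus the highest in WT and the lowest in this line. The differences from WT were 0.82 (SE 0.12, adjusted p = 0.0036) at day 0, -0.98 (SE 0.079, adjusted p = 4.7e-07) at day 2 and 1.95 (SE 0.12, adjusted p = 1.7e-07) at day 6. The first was lost without WT replicate 2 (adjusted p = 0.064) or ZNF503 shRNA replicate 2 (adjusted p = 0.066), and the others remained in each alternative fit. From day 0 to day 2 the change was -0.08 (SE 0.10, adjusted p = 0.57) in this line and differed from that in WT by -1.78 (SE 0.15, adjusted p = 4.8e-07). From day 2 to day 6 it rose by 0.87 (SE 0.10, adjusted p = 3.0e-06) and differed from WT by 2.92 (SE 0.14, adjusted p = 2.2e-10).

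In NKX2-5 shRNA cells SFRP1 started low. The libraries held 45.4 and 61.3 CPM at day 0, 445 and 481 at day 2, 214 and 206 at day 6 and 145 and 105 at day 10. They lay under WT at day 0 (-1.36, SE 0.12, adjusted p = 7.5e-05) and above it at day 6 (0.99, SE 0.12, adjusted p = 2.9e-05), and both calls remained in each alternative fit. The rise to day 2 was larger than in WT by 1.47 (SE 0.15, adjusted p = 3.5e-05). ZEB2 shRNA cells, with 174 and 187 CPM, were also above WT at day 6 (0.78, SE 0.12, adjusted p = 0.0012).

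SFRP5, another secreted Frizzled-related protein, was not raised at the CHIR99021 step. WT libraries held 1.23 and 1.28 CPM at day 0, 0.193 and 0.736 at day 2, 10.4 and 15.7 at day 6 and 7.73 and 3.23 at day 10. The rise from day 2 to day 6 was 5.00 (SE 0.56, adjusted p = 4.1e-05) on the log2 scale, and it was 4.12 without WT day 2 replicate 1 and 6.04 without replicate 2. SFRP5 rested on few counts at day 2. These were 6 and 12 in WT, 12 and 3 in NKX2-5, 22 and 12 in ZEB2 and 27 and 4 in ZNF503 shRNA cells. At day 6 NKX2-5 shRNA libraries held 34.8 and 30.7 CPM and ZNF503 shRNA libraries 32.6 and 27.7, all above WT, while ZEB2 shRNA libraries held 15.8 and 17.8. NKX2-5 and ZNF503 shRNA cells exceeded WT by 1.31 (SE 0.19, adjusted p = 0.00012) and 1.19 (SE 0.19, adjusted p = 0.00027). At day 10 NKX2-5 shRNA libraries held 23.2 and 28.1 CPM, higher than WT by 2.2 (SE 0.40, adjusted p = 0.0049), or by 3.00 without WT replicate 3. These 3 calls remained in each alternative fit. Against WT of the same day, the endoderm and hepatocyte marker sums given above were also higher in these lines. Within WT and within NKX2-5 shRNA cells the sum was higher at day 10 than at day 6. The SFRP5 libraries of day 10 lay under those of day 6 in both. The part of endoderm cells and hepatocytes in these results was not tested.

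NOTUM, an enzyme that strips the lipid from WNT ligands, was measured at low levels. WT libraries held 0.320 and 0.759 CPM at day 0, 3.44 and 3.37 at day 2, 0.867 and 0.577 at day 6 and 1.29 and 1.83 at day 10. It rose by 2.69 (SE 0.46, adjusted p = 0.0010), or 3.43 without WT day 0 replicate 2, and fell by 2.29 (SE 0.46, adjusted p = 0.0021). ZNF503 shRNA cells had 0.853 and 0.360 CPM at day 2, both under WT, a difference of -2.36 (SE 0.36, adjusted p = 0.00022), or -3.25 without ZNF503 shRNA replicate 1. At day 6 these cells held 3 and 4 counts and NKX2-5 shRNA cells 2 and 4, against 20 and 24 in WT. The differences were -2.14 (SE 0.62, adjusted p = 0.011) and -3.13 (SE 0.62, adjusted p = 0.0012). The first was lost without WT replicate 1 (adjusted p = 0.067), without ZNF503 shRNA replicate 1 (adjusted p = 0.053) and in the fit of all groups (adjusted p = 0.062), and the second remained in each alternative fit. At day 10 the NKX2-5 shRNA libraries disagreed, with 2.91 and 0.0945 CPM. The rise of 4.16 (SE 1.3, adjusted p = 0.028) from day 6 in this line was 0.26 (adjusted p = 0.87) without day 10 replicate 1 and 5.15 without replicate 2, and it was lost without day 6 replicate 1 (adjusted p = 0.12) or day 6 replicate 2 (adjusted p = 0.13).

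RSPO3, the agonist of the list, rose in WT at every step, and the shRNA lines departed from that course. WT libraries held 0.107 and 0.105 CPM at day 0, 3.38 and 2.51 at day 2, 101 and 112 at day 6 and 422 and 393 at day 10. The steps were 4.82 (SE 0.28, adjusted p = 1.0e-06), 5.12 (SE 0.14, adjusted p = 2.8e-09) and 1.97 (SE 0.11, adjusted p = 1.1e-06) on the log2 scale. ZNF503 shRNA cells lagged at day 2, with 0.337 and 0.945 CPM, a difference of -2.56 (SE 0.40, adjusted p = 0.00028) that was -1.68 without their replicate 1 and -3.22 without replicate 2. At day 6 they held 175 and 197 CPM and NKX2-5 shRNA cells 200 and 208, above WT by 0.80 (SE 0.12, adjusted p = 0.00011) and 0.93 (SE 0.12, adjusted p = 3.1e-05). ZEB2 shRNA cells, with 40.1 and 45.6 CPM, were under WT by 1.31 (log2 difference -1.31, SE 0.12, adjusted p = 2.2e-05).

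By day 10 RSPO3 was low in both shRNA lines measured. NKX2-5 shRNA cells held 20.8 and 50.1 CPM, having fallen by 2.57 (SE 0.36, adjusted p = 0.00098) from day 6. ZEB2 shRNA cells held 52.0 and 49.5 CPM, and their change from day 6 was 0.23 (SE 0.26, adjusted p = 0.44). The differences from WT were -3.52 (SE 0.39, adjusted p = 0.00079), a fold of 11.5, and -3.01 (SE 0.38, adjusted p = 0.0041), a fold of 8.07. Without NKX2-5 shRNA replicate 2 the first was -4.27 and the log2 change from day 6 was -3.31. All calls of RSPO3 against WT remained in each alternative fit. The cardiomyocyte marker sum at day 10 was 13816 to 16573 CPM in WT, 3935 to 5734 in ZEB2 shRNA and 52.7 to 327 in NKX2-5 shRNA cells, and its part in these differences was not tested.

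The order of the groups differed in how sharply it was resolved. Between the 14 neighbouring pairs in the order of group means, 9 overlapped in their libraries for AXIN2 and 3 for RSPO3, with the other genes in between. For RSPO3 WT at day 10 came first, followed by NKX2-5 shRNA cells at day 6, and the range from first to last for LEF1 was 202-fold, from WT at day 10 to NKX2-5 shRNA cells at day 0. DKK4 and SP5 shared their course most closely among the 10 genes (Pearson r = 0.933 of log2(CPM + 1) over the 15 group means), followed by SFRP5 and RSPO3 (r = 0.834) and AXIN2 and NKD1 (r = 0.814). AXIN2 and SFRP5 ran most opposed (r = -0.829). Group means of 1 day share the step of the protocol and its libraries, so these values describe the course only. Over the same 15 groups, among 14682 genes with at least 5 CPM in a group, the course of DKK4 was most like that of FGF17 (r = 0.990), that of RSPO3 like WNT11 (r = 0.990), that of SFRP5 like HNF4A (r = 0.987) and that of SP5 like LINC01124 (r = 0.973). The nearest genes were TGFB1 for DKK1 (r = 0.950), COLGALT2 for LEF1 (r = 0.949), MMP23B for NOTUM (r = 0.945), ZNF397 for AXIN2 (r = 0.927), NDE1 for NKD1 (r = 0.900) and MSI1 for SFRP1 (r = 0.880).

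Whether the course over time differed between an shRNA line and WT was tested directly with an interaction term. From day 0 to day 2 the change of 1 of 10 genes differed in NKX2-5 shRNA cells (3.99% of all genes), of 2 in ZEB2 shRNA cells (1.83%) and of 4 in ZNF503 shRNA cells (25.0%). From day 2 to day 6 the changes of 5 genes differed in NKX2-5 shRNA cells (46.0%), of 4 in ZEB2 shRNA cells (5.89%) and of 5 in ZNF503 shRNA cells (48.2%). At the thresholds of the study the shares were 0.934%, 0.502% and 3.40% to day 2 and 3.78%, 0.225% and 3.81% to day 6, in the same order of lines. SFRP1 passed in 5 of these 6 tests, while the adjusted p of AXIN2 lay between 0.26 and 0.96. The 2 calls in ZEB2 shRNA cells from day 0 to day 2 numbered 0 to 2 when single libraries were left out, and 0 without WT day 0 replicate 2. For DKK4 the SE of these differences ran from 0.76 to 2.3, since days 0 and 6 rest on few counts.

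**Figure D4:**
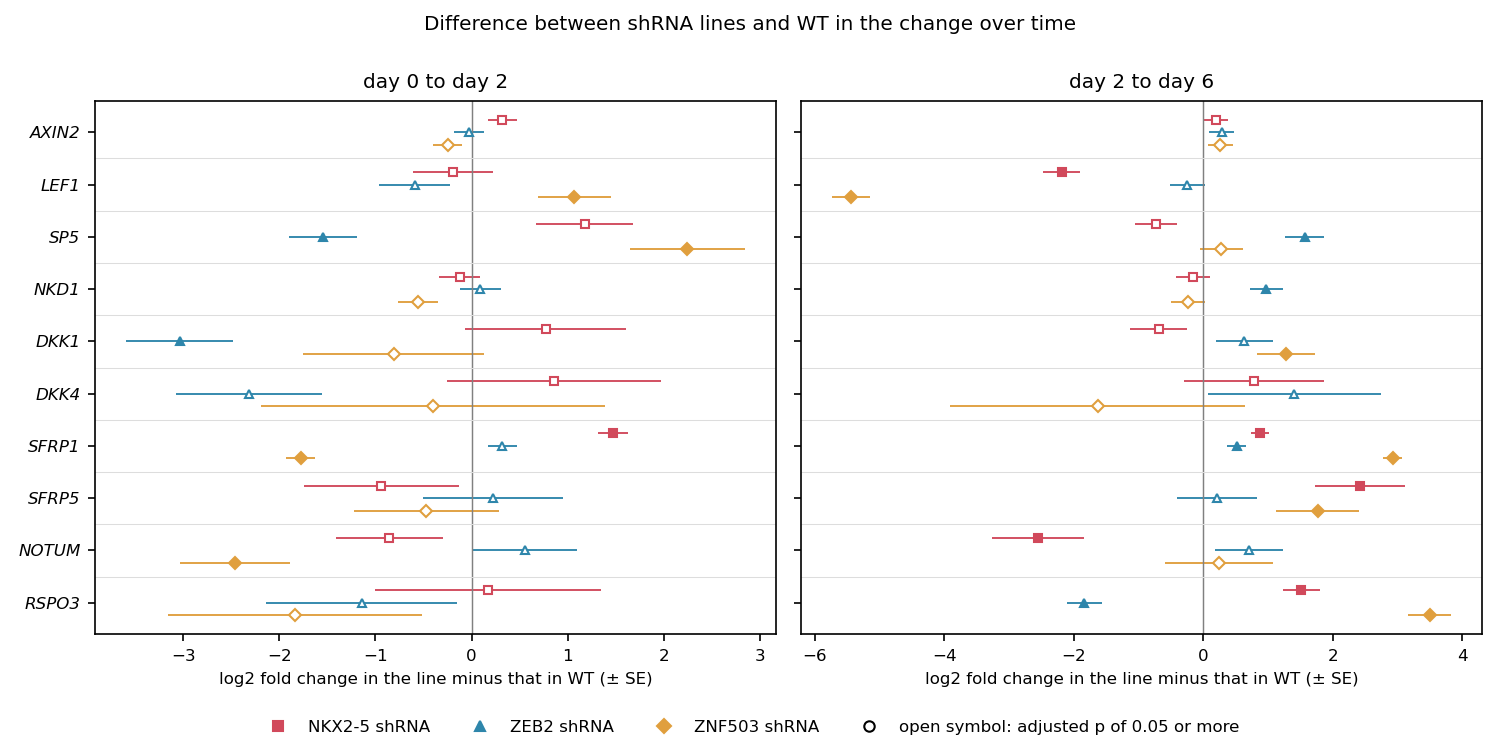
Difference between each shRNA line and WT in the log2 change over time (x axis, with SE) from day 0 to day 2 (left) and from day 2 to day 6 (right), with genes on the y axis. Filled symbols passed the test. LEF1 (-5.44) and RSPO3 (3.49) in ZNF503 shRNA cells lie farthest from 0 on the right.

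The wider pathway was read from 8 lists that hold 99 genes beside the 10. From day 0 to day 2 in WT cells 32 of 83 tested rose and 12 fell (44.1% of all genes changed), with a median log2 change of 0.25, and from day 2 to day 6, 23 rose and 36 fell (49.8% of all genes), with a median of -0.24. Among WNT ligands WNT3A went from 0 counts at day 0 to 3.55 ± 0.164 CPM at day 2 and back to 0 at day 6 (SD, n = 2), and WNT11 rose by 4.71 (SE 0.37, adjusted p = 3.3e-06) from day 2 to day 6. WLS, which carries WNT ligands to the cell surface, rose by 4.73 and then by 3.17 on the log2 scale. In the list of other extracellular antagonists CER1 rose by 8.89 (SE 0.18, adjusted p = 2.3e-09) and fell by 10.59, a course like that of DKK4 in time. The study counts CER1 among genes of mesoderm or mesendoderm formation, and an action of CER1 on WNT was not tested here. TBXT, MIXL1 and TBX6, mesoderm genes known as WNT targets, rose by 7.33, 5.58 and 4.49 to day 2. LGR4, a receptor for R-spondins, fell by 1.91 and then rose by 3.83, and RSPO2 went from 0 CPM at day 2 to 22.1 ± 0.825 at day 6 (SD, n = 2).

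At day 2 the ZNF503 and NKX2-5 lines each held more pathway genes lower than higher than WT. In ZNF503 shRNA cells 10 of 80 genes tested were higher and 26 lower (26.9% of all genes differed), in NKX2-5 shRNA cells 9 and 26 (26.7%), and in ZEB2 shRNA cells 1 and 0 (0.490%), with median log2 differences of -0.19, -0.29 and -0.04 beside -0.0091, -0.0032 and -0.0013 for all genes. At the thresholds of the study 2 were higher and 2 lower in ZNF503, 0 and 1 in NKX2-5 and 0 and 0 in ZEB2 shRNA cells. The single gene in ZEB2 shRNA cells was WNT5A, a ligand of the branch without β-catenin, at 80.6 ± 6.70 CPM against 52.1 ± 2.55 in WT (SD, n = 2). CER1 and SHISA2, which holds back Frizzled receptors inside the cell, went the same way as DKK4 in both lines. They were higher than WT in NKX2-5 shRNA cells, by 0.86 (adjusted p = 1.0e-05) and 1.01 (adjusted p = 4.4e-06), and lower in ZNF503 shRNA cells, by -1.59 (adjusted p = 5.1e-09) and -1.89 (adjusted p = 2.5e-09). TBX6 was lower than WT in both, by -1.29 and -2.40. In ZNF503 shRNA cells the corepressor TLE2 was lower by 2.82 (log2 difference -2.82, SE 0.18, adjusted p = 4.7e-08), and APCDD1, a membrane inhibitor of WNT, was higher by 1.33 (SE 0.14, adjusted p = 6.0e-06). APCDD1 was lower than WT in NKX2-5 shRNA cells (log2 difference -0.95, adjusted p = 0.00033), so it went the other way from DKK4 in both lines. Of 9 other extracellular antagonists tested, 3 were higher and 2 lower in NKX2-5 shRNA cells (26.7% of all genes differed). In ZNF503 shRNA cells 2 were higher and 3 lower (26.9%).

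At day 6 the pathway genes differed in both directions. In NKX2-5 shRNA cells 28 of 81 were higher and 23 lower (49.1% of all genes differed), in ZNF503 shRNA cells 33 and 21 (55.7%), and in ZEB2 shRNA cells 13 and 5 (11.0%). WNT2 was listed at 0 counts in both libraries of NKX2-5 and of ZNF503 shRNA cells and at 5.32 ± 2.22 CPM in WT (SD, n = 2). WNT5A stood at 6.35 ± 0.141 and 4.89 ± 0.301 CPM in these lines and at 140.0 ± 30.0 in WT. RSPO2 went the other way from RSPO3 in them, with log2 differences of -3.54 (SE 0.24, adjusted p = 2.1e-07) and -4.75 (SE 0.28, adjusted p = 8.9e-08). PORCN, the enzyme that IWP2 inhibits, was higher than WT by 2.18 (SE 0.29, adjusted p = 5.9e-05) in NKX2-5 and by 3.99 (SE 0.31, adjusted p = 7.3e-07) in ZNF503 shRNA cells. FRZB, a secreted Frizzled-related antagonist, was higher by 3.07 and 3.38, in the same direction as SFRP1 and SFRP5. SHISA2 went the other way, with log2 differences of -3.91 and -2.12. In the list of other extracellular antagonists, with 10 tested, 2 were higher and 3 lower in NKX2-5 shRNA cells. In ZNF503 shRNA cells 3 were higher and 3 lower. Both counts were close to the shares of all genes given above. In ZEB2 shRNA cells LGR5, an R-spondin receptor and WNT target, was measured at 71.4 ± 8.53 CPM against 5.17 ± 0.205 in WT, a log2 difference of 3.79 (SE 0.22, adjusted p = 1.2e-06), and CER1 was higher by 3.49 (SE 0.33, adjusted p = 3.2e-05).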

How the data were processed

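RNA-seq of H1 cells was mapped to hg19 with TopHat2 2.0.14 (Bowtie2 2.2.1.0 and SAMtools 0.1.19.0 are also named in the submitters' processing notes), and the authors deposited raw counts per RefSeq transcript. Whether counting used strand is not given in the sources used here. Of 41627 accessions 96.8% matched a gene, and the row with the largest total stood for each of 23189 genes. The values of 4 columns could not be tied to accessions and were not used, leaving 30 of 34 libraries. Counts were tested with edgeR 4.0.16 in R 4.3.3 (TMM scaling, filterByExpr, quasi-likelihood test, Benjamini-Hochberg adjustment over all genes tested, adjusted p under 0.05), after the fit had been tested on simulated data. Fits took all groups of a day, of a line, or of 2 days for the interaction. Levels are CPM scaled by TMM. Alternatives were DESeq2 1.42.0, its size factors, no filter, 1 fit of all groups, summed rows, a replicate block, the thresholds of the study and leaving out each library. All 10 genes are named throughout. Of each pathway list the genes named come from the 3 with the largest change that passed, did not overlap and reached 1 CPM, and the nearest gene by course is given from those reaching 5 CPM. The 10 genes and the lists were chosen with earlier results of these data known. Intervals and floors (3 counts) cover counting error only.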

Additional observations from a re-analysis of the deposited data

Results flagged for a closer look

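In 21 cases the change of a gene from one day to the next differed between an shRNA line and WT in the test of the difference itself (edgeR interaction term, Benjamini-Hochberg adjusted p under 0.05). All values are differences in log2 change, line minus WT, and all lines share the WT libraries. Of all genes tested, 3.99%, 1.83% and 25.0% differed to day 2 in NKX2-5, ZEB2 and ZNF503 shRNA cells. To day 6 these shares were 46.0%, 5.89% and 48.2%. The 5 of 10 genes called to day 6 in NKX2-5 and in ZNF503 shRNA cells were thus close to the share among all genes.

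From day 0 to day 2, SFRP1 differed by 1.47 with NKX2-5 shRNA. For the ZEB2 line SP5 differed by -1.55 and DKK1 by -3.04. DKK1 rested on 4 and 5 counts in the WT libraries of day 0. In ZNF503 shRNA cells LEF1 differed by 1.07, SP5 by 2.25, SFRP1 by -1.78 and NOTUM by -2.46. The SFRP1 values passed in each of 14 alternative fits. LEF1 was lost in 9 of 14 alternative fits and SP5 in ZEB2 shRNA cells in 7. SP5 in ZNF503 shRNA cells was 1.60 (adjusted p = 0.15) without WT day 0 replicate 1 and was also lost without ZNF503 shRNA day 0 replicate 2 (adjusted p = 0.064). DKK1 in ZEB2 shRNA cells was lost without WT day 0 replicate 1 (adjusted p = 0.071) or replicate 2 (adjusted p = 0.056) and in the fit of all groups (adjusted p = 0.17). NOTUM in ZNF503 shRNA cells was lost in the fit of all groups (adjusted p = 0.093).

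From day 2 to day 6, LEF1 differed by -2.19, SFRP1 by 0.87, SFRP5 by 2.42, NOTUM by -2.56 and RSPO3 by 1.51 with NKX2-5 shRNA. For the ZEB2 line SP5 differed by 1.57, NKD1 by 0.97, SFRP1 by 0.51 and RSPO3 by -1.84. In ZNF503 shRNA cells LEF1 differed by -5.44, DKK1 by 1.28, SFRP1 by 2.92, SFRP5 by 1.77 and RSPO3 by 3.49. LEF1, and RSPO3 in NKX2-5 and ZNF503 shRNA cells, passed in each of 14 alternative fits, as did SFRP1 in these lines and SP5 in ZEB2 shRNA cells. RSPO3 in ZNF503 shRNA cells was 2.49 without ZNF503 shRNA day 2 replicate 1. In the fit of all groups NOTUM in NKX2-5 shRNA cells (adjusted p = 0.079) and RSPO3 in ZEB2 shRNA cells (adjusted p = 0.055) were lost. SFRP5 turned on the WT libraries of day 2. Without replicate 2 its difference was 1.40 (adjusted p = 0.20) in NKX2-5 and 0.75 (adjusted p = 0.48) in ZNF503 shRNA cells, and without replicate 1 it was 3.33 and 2.67. NKD1 was lost in 7 of 14 alternative fits, DKK1 in 7, SFRP5 in ZNF503 shRNA cells in 5 and SFRP1 in ZEB2 shRNA cells in 9.

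At the fold and FDR thresholds of the study the differences that passed were DKK1 in the ZEB2 line and SP5 and NOTUM in the ZNF503 line from day 0 to day 2, and LEF1 and RSPO3 in the ZNF503 line from day 2 to day 6.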

How the results depend on the processing

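Over 160 gene results that passed the test, 1661 alternative values were computed. Of these 1491 kept their direction and passed, 170 kept their direction but missed the threshold and 0 reversed, and 113 results passed in every alternative fit run for them (the thresholds of the study, given below, are not among these). The size factors of DESeq2 moved the median of all genes by at most 0.081 (log2). Counts of calls among the 10 genes moved by over 1.5 times as follows, and the cause was not tested. In 1 fit of all groups the count was 1 in NKX2-5 shRNA cells at day 0, 0 in ZEB2 shRNA cells at day 2, and, for differences in change from WT, 0 (ZEB2) and 2 (ZNF503) from day 0 to day 2 and 1 (ZEB2) from day 2 to day 6. At day 0 in ZNF503 shRNA cells it was 1 with DESeq2 and 1 with summed rows, and without a filter it was 3 in ZEB2 shRNA cells at day 2.

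Replicate numbers did not pair the samples, since deviations of libraries with the same number correlated between -0.41 and 0.41 (median 0.016, 19 pairs of groups, 2 over 0.1 and 3 under -0.1). With the replicate number as a block the count was 1 in ZNF503 shRNA cells at day 0 and 2 in ZEB2 shRNA cells at day 2. Calls missed under the block were SP5 in ZNF503 shRNA cells at day 0 (adjusted p = 0.065), SP5 in ZEB2 shRNA cells at day 6 (adjusted p = 0.053), NKD1 in ZNF503 shRNA cells at day 6 (adjusted p = 0.059) and the rise of NOTUM in NKX2-5 shRNA cells to day 10 (adjusted p = 0.055).

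With the fold and FDR thresholds of the study, counts against WT were 1, 0, 2 and 1 in NKX2-5 shRNA cells at days 0, 2, 6 and 10, were 0, 0 and 2 in ZEB2 shRNA cells at days 2, 6 and 10, and were 1, 3 and 1 in ZNF503 shRNA cells at days 0, 2 and 6. Over time they were 4 at day 6 and 0 at day 10 in WT and in NKX2-5 shRNA cells, 6, 4 and 1 at days 2, 6 and 10 in ZEB2 shRNA cells, and 5 and 4 at days 2 and 6 in ZNF503 shRNA cells. For differences in change they were 0, 1 and 2 (NKX2-5, ZEB2, ZNF503) to day 2 and 0, 0 and 2 to day 6.

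Leaving out single libraries gave 1 to 4 calls in NKX2-5 shRNA cells at day 0 (1 without either WT library), 0 to 1 in ZNF503 shRNA cells at day 0 (with any of the 4 libraries left out), 0 to 1 in ZEB2 shRNA cells at day 2 (0 without WT replicate 1, WT replicate 2 or ZEB2 shRNA replicate 2), 4 to 7 in NKX2-5 shRNA cells at day 10 and 1 to 2 in ZEB2 shRNA cells at day 10. From day 6 to day 10 it gave 4 to 7 in WT and 5 to 9 in NKX2-5 shRNA cells. For differences in change it gave 0 to 2 (ZEB2) and 2 to 4 (ZNF503, with 2 left without WT day 0 replicate 1 or ZNF503 shRNA day 0 replicate 2) to day 2. To day 6 it gave 2 to 4 (ZEB2, 2 without either WT day 2 library, either ZEB2 shRNA day 2 library, WT day 6 replicate 1 or ZEB2 shRNA day 6 replicate 2) and 3 to 4 (ZNF503, 3 without WT day 2 replicate 2, ZNF503 shRNA day 2 replicate 1 or ZNF503 shRNA day 6 replicate 1). A lone library left in a group was assumed to vary like the others. Groups hold 2 libraries, and levels under or near the 3-count floor limit DKK1, DKK4, SP5, SFRP5, NOTUM and RSPO3 at the days named above.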
